A study of Homo sapiens with 2 samples.

Results

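The genes described here are HIF1A, which encodes the oxygen-regulated subunit of hypoxia-inducible factor 1, 7 targets of hypoxia-inducible factors that lie outside glycolysis (NDRG1, EGLN1, EGLN3, BNIP3, BNIP3L, ANKRD37 and KDM3A), and the carbonic anhydrases CA9 and CA12. They were chosen by name, and the 10 symbols matched 10 of the 19362 genes in the deposited table. The cells were FTC-133, an established human cell line from a follicular thyroid carcinoma. One group was transfected with siRNA against CHI3L1 (1 library) and the other with a control siRNA (1 library). Both were sequenced from total RNA. CHI3L1 encodes a secreted chitin-binding glycoprotein. The sources used here do not state the oxygen supply of the cultures, the time after transfection or how many siRNAs were used.

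Hypoxia-inducible factors are dimers of an oxygen-regulated alpha subunit (HIF1A or EPAS1) and the stable subunit ARNT. When oxygen is present, the prolyl hydroxylases EGLN1, EGLN2 and EGLN3 hydroxylate the alpha subunit, the von Hippel-Lindau protein VHL binds it, and it is degraded by the proteasome. When oxygen is low the alpha subunit persists and the dimer binds DNA at hypoxia response elements, whose core is ACGTG or GCGTG. Control of HIF1A is therefore mostly at the level of the protein, which RNA sequencing does not measure. CA9 and CA12 are membrane enzymes that hydrate carbon dioxide outside the cell, and CA9 in particular is widely used as a marker of tumour hypoxia.

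Promoter sequence is shown for 4 genes, because their folds differed in sign. The carbonic anhydrases CA9 and CA12 were higher in the CHI3L1 siRNA library. BNIP3 and ANKRD37 had the 2 negative folds of the 10 genes, and BNIP3 was within 1.5-fold. Each line is the 250 bases before the start that RefSeq annotates, 5′ to 3′ on the gene's own strand, from RefSeq on GRCh38.p14. Capitals mark the hypoxia response element core on either strand, so that CACGT and CACGC are ACGTG and GCGTG read from the other strand.
CA9: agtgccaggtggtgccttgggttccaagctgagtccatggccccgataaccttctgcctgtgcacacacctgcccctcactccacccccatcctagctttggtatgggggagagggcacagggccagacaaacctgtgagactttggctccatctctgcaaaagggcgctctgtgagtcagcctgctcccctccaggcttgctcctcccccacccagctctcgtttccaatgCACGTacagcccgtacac
CA12: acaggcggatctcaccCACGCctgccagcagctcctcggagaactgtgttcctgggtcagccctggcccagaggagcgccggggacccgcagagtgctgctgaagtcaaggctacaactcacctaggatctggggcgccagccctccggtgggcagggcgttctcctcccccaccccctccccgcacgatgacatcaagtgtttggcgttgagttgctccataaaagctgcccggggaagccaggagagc
BNIP3: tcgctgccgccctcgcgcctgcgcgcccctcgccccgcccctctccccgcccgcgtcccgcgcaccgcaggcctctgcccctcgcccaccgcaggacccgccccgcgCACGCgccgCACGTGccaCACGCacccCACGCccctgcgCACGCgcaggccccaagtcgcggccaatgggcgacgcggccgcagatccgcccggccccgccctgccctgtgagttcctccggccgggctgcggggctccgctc
ANKRD37: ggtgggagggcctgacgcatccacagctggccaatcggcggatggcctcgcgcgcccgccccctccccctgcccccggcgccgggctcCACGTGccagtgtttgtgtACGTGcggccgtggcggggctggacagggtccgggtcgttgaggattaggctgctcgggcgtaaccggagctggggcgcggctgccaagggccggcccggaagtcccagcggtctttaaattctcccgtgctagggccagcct
These stretches lie at chr9:35673678-35673927 (plus strand) for CA9, chr15:63381847-63382096 (minus strand) for CA12, chr10:131981924-131982173 (minus strand) for BNIP3 and chr4:185396591-185396840 (plus strand) for ANKRD37. The gene spans of GENCODE release 29 printed further down begin at earlier starts. The RefSeq start lies inside that span by 72 bases for CA9, 315 for CA12, 90 for BNIP3 and 820 for ANKRD37, so the stretches of CA12 and ANKRD37 lie wholly inside the GENCODE gene and those of CA9 and BNIP3 in part.

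The table of promoter windows had 8 of the 10 genes, and none was used for NDRG1 and BNIP3L. The motifs searched were ACGTG and GCGTG on both strands, and positions count back from the RefSeq start to the first letter of the match. CA9 had 1 match to ACGTG, at −18. EGLN1 also had 1, at −13. ANKRD37 had 3 matches, of which those at −162 and −161 overlap as the palindrome CACGTG and the other is at −143. BNIP3 had the same palindrome (matches at −134 and −133) and 4 matches to GCGTG, at −143, −125, −116 and −104. CA12 had 1 match to GCGTG, at −234, KDM3A 1 at −26 of its first window and HIF1A 1 at −204 of its first window, and none of these had ACGTG. The second window of KDM3A overlaps its first and holds the same match, at −116, and the second window of HIF1A had neither motif. EGLN3 had neither motif in its window. The RefSeq start lies inside the GENCODE span by 511700 bases for EGLN3, 2757 for EGLN1 and 724 for the first window of KDM3A. Over all 27305 promoter windows of this length, 18.7% held ACGTG and 43.1% held either motif, so matches are common. A match describes the sequence and does not show a bound site. BNIP3 and ANKRD37 had the most matches of the 8, with each palindrome counted as 2 matches. Whether the number of matches goes with the folds was not tested, and NDRG1, which had the highest fold, had no window.

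The library made with siRNA against CHI3L1 had 19467345 reads in the table and the control siRNA library 15837449. CHI3L1 itself had 48.6 CPM in the CHI3L1 siRNA library, against 140 CPM in the control siRNA library, a ratio of 0.347 (95% interval 0.321 to 0.374). Genes were tested where the average of both libraries was 1 CPM or more, which held for 14815 genes and for all 10 described here. With 1 library per group there is no replicate check and no p-value, and each difference is one between these libraries rather than between conditions. Intervals are 95% exact (Clopper-Pearson) intervals of the ratio of reads and cover counting error only. The log2 fold sets CHI3L1 siRNA over control siRNA with 1 CPM added to each value, and a gene is called higher or lower at 1.5-fold on that scale. In bulk RNA, fewer cells of a type and less RNA per cell cannot be told apart. The thyroid transcription factor PAX8 was present at 71.2 CPM in the CHI3L1 siRNA library and 82.8 CPM in the control siRNA library. So was NKX2-1, at 112 and 88.6 CPM in the same order. HHEX was at 3.49 and 3.16 CPM. FOXE1 (19 and 1 reads) and thyroglobulin (TG, 0.718 and 0.632 CPM) were below the mean set for testing. Of 11 thyroid genes listed, 9 had values and 6 were tested, with 0 higher and 0 lower. The epithelial KRT8 was at 55.9 and 51.8 CPM and KRT18 at 24.7 and 31.6 CPM. CDH1 was at 1.59 and 1.08 CPM, and KRT19 had 5 and 8 reads. EPCAM, with 78 and 32 reads, was higher (log2 fold 0.73). Of 16 markers of fibroblasts, endothelium and immune cells, 8 were tested. Of these 0 were higher and 1 was lower (12.5%), where 7.73% of all tested genes were higher and 13.4% lower. The lower one was the endothelial PECAM1, at 3.80 CPM in the CHI3L1 siRNA library and 7.34 CPM in the control siRNA library (log2 fold −0.80). The endothelial KDR (4.05 and 2.47 CPM in the same order) and VWF (1.90 and 1.45 CPM) had log2 folds of 0.54 and 0.24. The fibroblast markers THY1 (745 and 558 CPM in the same order), FAP (240 and 223 CPM) and LUM (40.2 and 51.8 CPM) were expressed. The other listed fibroblast markers were low: PDGFRB at 7.90 and 7.15 CPM, DCN at 1.49 and 1.20 CPM, and PDGFRA at 0.103 and 0.569 CPM. The part of these markers in the results was not tested. The pan-leukocyte gene PTPRC had 8 reads in the CHI3L1 siRNA library and 12 in the control siRNA library.

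Of the 10 genes, NDRG1, CA9, CA12 and EGLN3 were at least 1.5-fold higher in the CHI3L1 siRNA library, ANKRD37 was at least 1.5-fold lower, and HIF1A, EGLN1, BNIP3, BNIP3L and KDM3A were within 1.5-fold. That is 4 of 10 higher and 1 of 10 lower, where 7.73% of all tested genes were higher and 13.4% lower. The median log2 fold of the 10 genes was 0.42, against 0.01 for all tested genes. NDRG1, CA9 and CA12 were also past 2-fold, and none of the 10 was 2-fold lower; of all tested genes 1.03% were 2-fold higher and 4.41% 2-fold lower. The counting interval did not hold a ratio of 1 for any of the 10. Together the 10 genes made up 0.509% of reads in the CHI3L1 siRNA library and 0.314% in the control siRNA library. These genes are well-known members of a pathway and were chosen with earlier results of these data known, so the share that was higher is a description.

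**Figure D1:**
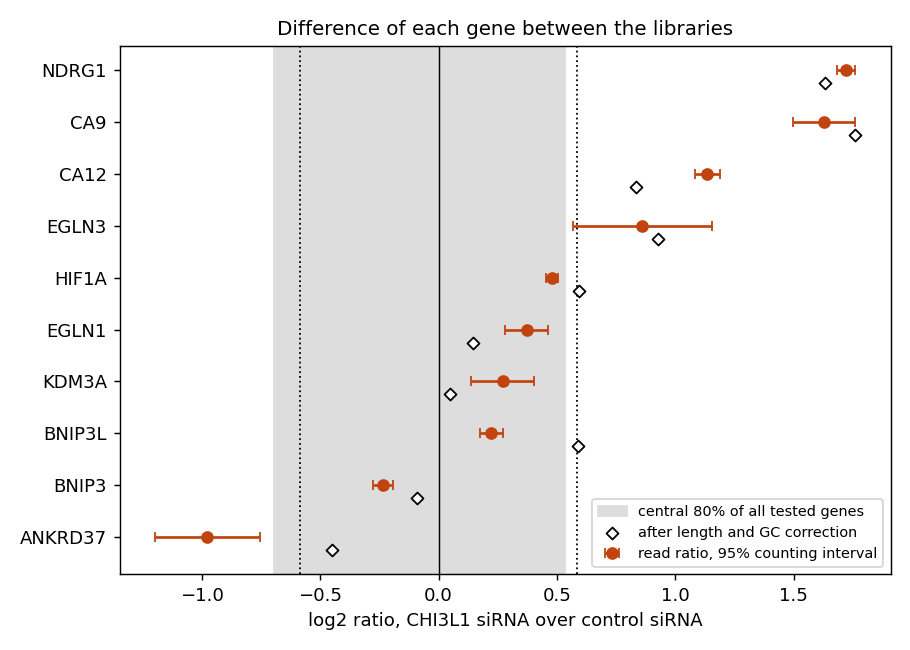
Log2 ratio of each of the 10 genes, CHI3L1 siRNA over control siRNA, on the horizontal axis. Filled points are read ratios with 95% counting intervals, open diamonds are log2 folds after the length and GC correction, dotted lines mark 1.5-fold and the grey band is the central 80% of all tested genes (log2 fold −0.69 to 0.53). The filled points of NDRG1, CA9 and CA12 stand well to the right of the band, and that of EGLN3 also lies to its right. The filled point of ANKRD37 alone stands to its left, and its diamond (−0.45) lies inside the band. The diamonds of HIF1A (0.594) and BNIP3L (0.588) lie just past its right edge.

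NDRG1 had the highest fold of the 10. It encodes a cytoplasmic protein of the N-myc downstream-regulated family that is induced by hypoxia and by other stresses in many cell types. NDRG1 (ENSG00000104419, chromosome 8, 133237171 to 133302022; gene coordinates are those of GENCODE release 29 on GRCh38) had 28655 reads, or 1470 CPM, in the CHI3L1 siRNA library, against 7058 reads, or 446 CPM, in the control siRNA library. The ratio was 3.29 (3.21 to 3.38) and the log2 fold 1.72, higher than 99.9% of tested genes. Its paralogs did not pass 1.5-fold. NDRG2 had a log2 fold of −0.44, NDRG3 of 0.27 and NDRG4 of 0.44. NDRG1 took 93.8% of the reads of the 4 NDRG genes in the CHI3L1 siRNA library (93.5% to 94.0%) and 83.6% in the control siRNA library (82.8% to 84.4%). Per kilobase of transcript its share was 93.6% and 82.6% in the same order.

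CA9 (ENSG00000107159, chromosome 9, 35673856 to 35681159) had 2353 reads, or 121 CPM, in the CHI3L1 siRNA library, against 618 reads, or 39.1 CPM, in the control siRNA library. The ratio was 3.09 (2.83 to 3.38) and the log2 fold 1.60. Its promoter is the one printed above with a single ACGTG close to the RefSeq start, which lies inside the gene span given here. Of the exonic bases of CA9, 38.5% overlap exons of ARHGEF39 on the opposite strand. The strand setting of the counting is not given, so reads in the overlap cannot be assigned with certainty. ARHGEF39 itself stood at 14.7 CPM in the CHI3L1 siRNA library and 14.5 CPM in the control siRNA library, a log2 fold of 0.02.

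CA12 (ENSG00000074410, chromosome 15, 63321378 to 63382161), known also as an oestrogen-responsive gene in breast epithelium, had 10265 reads, or 527 CPM, in the CHI3L1 siRNA library, against 3790 reads, or 240 CPM, in the control siRNA library. The ratio was 2.20 (2.12 to 2.28) and the log2 fold 1.13. CA12 had more reads than CA9 in both libraries, but its transcript is also longer, at 6413 nt against 1618 nt. Per kilobase of transcript, CA12 stood 1.10 times as high as CA9 in the CHI3L1 siRNA library and 1.55 times as high in the control siRNA library. The ratio of CA12 to CA9 reads was 0.711 times as large in the CHI3L1 siRNA library as in the control siRNA library (0.645 to 0.784).

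The other carbonic anhydrases stayed within 1.5-fold. Of 15 genes of the family, 7 were in the table and 6 were tested, among them CA9 and CA12. The cytosolic CA3 had a log2 fold of −0.14 and CA13 of 0.04, the mitochondrial CA5B of −0.02, and CA11, which lacks catalytic activity, of −0.10. CA14, a further membrane form, had 19 reads in the CHI3L1 siRNA library and 11 in the control siRNA library and was below the mean set for testing. CA9 and CA12 together took 94.1% of the family's reads in the CHI3L1 siRNA library (93.7% to 94.5%) and 87.0% in the control siRNA library (86.1% to 88.0%). Per kilobase of transcript their share was 91.8% and 80.7% in the same order.

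HIF1A (ENSG00000100644, chromosome 14, 61695513 to 61748259) had 36633 reads, or 1879 CPM, in the CHI3L1 siRNA library, against 21323 reads, or 1348 CPM, in the control siRNA library. The ratio of 1.39 (1.37 to 1.42) did not reach 1.5-fold, and its log2 fold was 0.48. The other alpha subunit, EPAS1 (HIF-2 alpha), which shares many targets with HIF1A, was higher by more: it stood at 228 CPM in the CHI3L1 siRNA library and 96.9 CPM in the control siRNA library, a log2 fold of 1.23 (0.88 after the length and GC correction) and a ratio of 2.36 (2.22 to 2.50). HIF1A stayed the more abundant of the pair, at 10.8 times EPAS1 per kilobase in the CHI3L1 siRNA library and 18.3 times in the control siRNA library. The ratio of HIF1A to EPAS1 reads was 0.591 times as large in the CHI3L1 siRNA library (0.556 to 0.628). Of the exonic bases of HIF1A, 2.27% overlap the antisense gene HIF1A-AS1, which stood at 4.51 CPM in the CHI3L1 siRNA library and 3.10 CPM in the control siRNA library. The partner subunit ARNT had a log2 fold of 0.37.

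The oxygen-sensing prolyl hydroxylases EGLN1 and EGLN3 are themselves HIF targets, which makes them part of a negative feedback on the factor. EGLN1 (ENSG00000135766, chromosome 1, 231363751 to 231425044) is the main hydroxylase of HIF1A in most cells. It had 2632 reads, or 135 CPM, in the CHI3L1 siRNA library, against 1650 reads, or 104 CPM, in the control siRNA library. Its ratio was 1.29 (1.22 to 1.38) and its log2 fold 0.37. EGLN3 (ENSG00000129521, chromosome 14, 33924231 to 34462774) had far fewer reads, 315 in the CHI3L1 siRNA library (16.2 CPM) and 141 in the control siRNA library (8.92 CPM). Its ratio was 1.81 (1.48 to 2.23), an interval that reaches below 1.5, and its log2 fold was 0.79.

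EGLN2, the third of these hydroxylases and not among the 10 genes, went the other way, at 4.36 CPM in the CHI3L1 siRNA library and 8.73 CPM in the control siRNA library (log2 fold −0.86, 85 and 138 reads). EGLN2 shares exonic sequence with other annotated genes on its own strand, so its reads are uncertain. EGLN1 held 86.8% of the reads of the 3 hydroxylase genes in the CHI3L1 siRNA library (85.6% to 88.0%) and 85.5% in the control siRNA library (83.9% to 87.1%), intervals that overlap. The share of EGLN3 was 10.4% (9.33% to 11.5%) in the CHI3L1 siRNA library and 7.31% (6.19% to 8.56%) in the control siRNA library. Per kilobase of transcript, the share of EGLN1 was 71.7% and 69.7% in the same order, and that of EGLN3 22.5% and 15.6%.

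Of 17 genes for HIF subunits and oxygen sensing, of which HIF1A, EGLN1 and EGLN3 are members of the 10, 16 were tested. EPAS1 and EGLN3 were higher (12.5%, beside 7.73% of all tested genes) and 4 were lower (25%, beside 13.4%): EGLN2 and the VHL ubiquitin ligase components ELOC, RBX1 and ELOB. The last 3 had log2 folds of −1.19, −0.98 and −0.85. Their transcripts are short, and after the length and GC correction their log2 folds were −0.27, −0.38 and −0.22, within 1.5-fold. After the correction 3 of the 16 were higher, EGLN3 (0.93), EPAS1 (0.88) and HIF1A (0.59), and EGLN2 was lower (−0.87). Of all corrected genes, 7.6% were higher and 6.14% lower. The list's median before the correction was 0.16.

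BNIP3 and BNIP3L (NIX) encode related proteins of the outer mitochondrial membrane that act as receptors for mitophagy, the removal of mitochondria by autophagy, and both are classical HIF targets. BNIP3 (ENSG00000176171, chromosome 10, 131966455 to 131982013) had 8760 reads, or 449 CPM, in the CHI3L1 siRNA library, against 8358 reads, or 529 CPM, in the control siRNA library. The ratio was 0.850 (0.825 to 0.876) and the log2 fold −0.23. BNIP3L (ENSG00000104765, chromosome 8, 26382898 to 26505636) had 8013 reads, or 411 CPM, in the CHI3L1 siRNA library, against 5569 reads, or 352 CPM, in the control siRNA library. The ratio was 1.17 (1.13 to 1.21) and the log2 fold 0.22.

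Neither mitophagy receptor passed 1.5-fold before the length and GC correction, and they differed in sign. BNIP3 was 1.38 times as high as BNIP3L per kilobase in the CHI3L1 siRNA library and 1.89 times as high in the control siRNA library. The ratio of BNIP3 to BNIP3L reads was 0.728 times as large in the CHI3L1 siRNA library (0.696 to 0.762). BNIP3 has 44 annotated pseudogene copies, so the assignment of its reads is uncertain. A single one of these copies was in the table, with 6 reads in the CHI3L1 siRNA library and 8 in the control siRNA library. BNIP3L shares 7.66% of its exonic bases with PNMA2 on the opposite strand, a gene at 67.4 CPM in the CHI3L1 siRNA library and 61.0 CPM in the control siRNA library. In the wider list of 21 mitophagy receptors, adaptors and BNIP genes, 1 was higher (4.76%) and 3 were lower (14.3%), with a median of 0.01, where 7.73% of all tested genes were higher and 13.4% lower. The higher one was the LC3 gene MAP1LC3A (log2 fold 0.60), and the lower ones were FUNDC1 (−0.93), BNIP1 (−0.82) and FUNDC2 (−0.81). These counts turned with the processing. After the length and GC correction 3 were higher and 1 lower, where 7.6% of all corrected genes were higher and 6.14% lower. The higher ones were then MAP1LC3A (1.10), GABARAP (0.68) and BNIP3L (0.588). FUNDC1 was at −0.17, BNIP1 at −0.44 and FUNDC2 at −0.80. When folds were centred on genes averaging 50 CPM or more, 0 were higher and 5 lower. Of all 14815 tested genes, 686 were then higher and 2572 lower.

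ANKRD37 encodes a small ankyrin-repeat protein and is a HIF target of several cell types. It was the sole member of the 10 that was lower by the rule. ANKRD37 (ENSG00000186352, chromosome 4, 185396021 to 185400628) had 274 reads, or 14.1 CPM, in the CHI3L1 siRNA library, against 437 reads, or 27.6 CPM, in the control siRNA library. The ratio was 0.509 (0.436 to 0.593) and the log2 fold −0.93. It has the shortest transcript of the 10, at 1141 nt, and the median log2 fold of the 2495 tested coding genes above 1000 and up to 2000 nt was −0.24. After the length and GC correction its log2 fold was −0.45, within 1.5-fold. Of its exonic bases 35.2% overlap exons of UFSP2 on the opposite strand, and UFSP2 stood at 37.3 CPM in the CHI3L1 siRNA library and 28.9 CPM in the control siRNA library.

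KDM3A (JMJD1A) encodes a JmjC-domain demethylase of histone H3 lysine 9 that needs oxygen for catalysis. KDM3A (ENSG00000115548, chromosome 2, 86440647 to 86492716) had 1160 reads, or 59.5 CPM, in the CHI3L1 siRNA library, against 780 reads, or 49.3 CPM, in the control siRNA library. Its ratio was 1.21 (1.10 to 1.32) and its log2 fold 0.27. The other genes of its subfamily, KDM3B and JMJD1C, had similar log2 folds of 0.28 and 0.22. Of 21 JmjC demethylase genes tested, 5 were higher (23.8%), 0 were lower and the median was 0.42. Of all tested genes 7.73% were higher and 13.4% lower, and of the class with transcripts over 4000 nt 14.4% were higher. The highest was KDM2A (log2 fold 0.96, the lysine 36 demethylase), then KDM6B (0.79), KDM4B (0.67), KDM7A (0.64) and KDM2B (0.59). Their transcripts are between 4595 and 9272 nt long. After the length and GC correction none of the 21 passed 1.5-fold, and the corrected values for KDM3A and KDM2A were 0.05 and 0.53.

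Levels of different genes compare only per length. Per kilobase of 1 annotated transcript, the order in the CHI3L1 siRNA library was NDRG1 (488 CPM per kilobase), HIF1A (479), BNIP3 (157), BNIP3L (114), CA12 (82.1), CA9 (74.6), EGLN1 (19.0), ANKRD37 (12.3), KDM3A (12.2) and EGLN3 (5.96). In the control siRNA library HIF1A came first (344 CPM per kilobase), then BNIP3 (185) and NDRG1 (148). Next were BNIP3L (97.6), CA12 (37.4), ANKRD37 (24.2), CA9 (24.2), EGLN1 (14.7), KDM3A (10.1) and EGLN3 (3.29). With 1 library per group the spread over samples is unknown, so close neighbours such as NDRG1 and HIF1A, or ANKRD37 and KDM3A, in the CHI3L1 siRNA library, and ANKRD37 and CA9 in the control siRNA library, cannot be ranked.

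**Figure D2:**
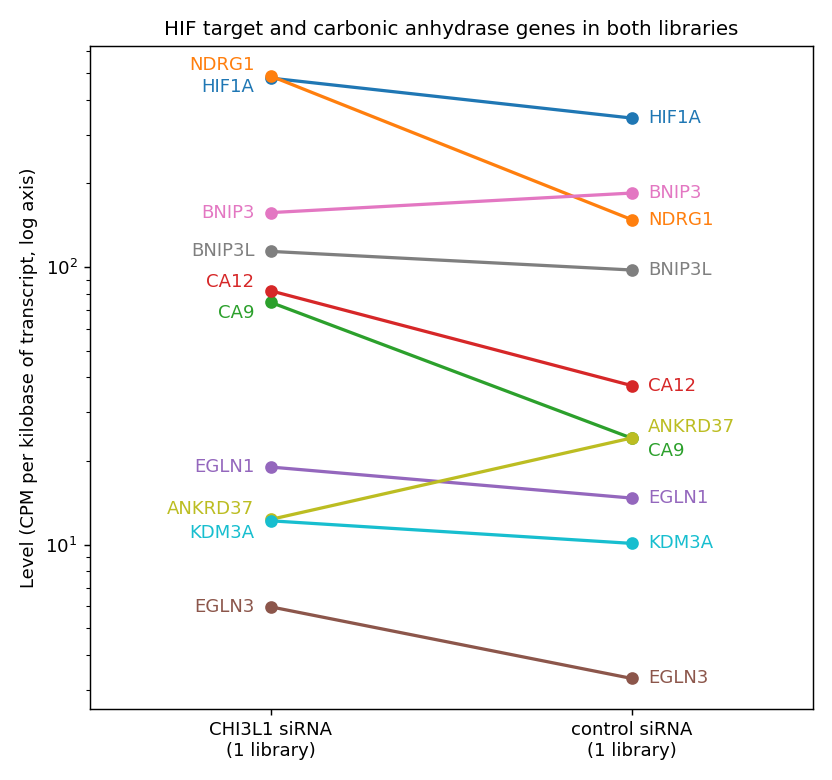
Level of each of the 10 genes in CPM per kilobase of transcript (log axis), CHI3L1 siRNA library on the left and control siRNA library on the right, 1 library each. Lines join the values of a gene: NDRG1 is at 488 in the CHI3L1 siRNA library and 148 in the control siRNA library, CA9 is at 74.6 and 24.2 in that order, and the lines of BNIP3 and ANKRD37 alone slope upward to the right.

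Folds in this pair of libraries followed transcript length. For the 600 coding genes with transcripts no longer than 1000 nt the median log2 fold was −0.62. It was 0.03 for 4942 genes between 2000 and 4000 nt, and 0.25 for the 4633 genes beyond 4000 nt. CA9, with 1618 nt, stood far above its own length class, in which 2.81% of genes were at least 1.5-fold higher. NDRG1 and EGLN3, in the class above 2000 and up to 4000 nt, were past 1.5-fold where 6.45% of the class was. For CA12, in the class over 4000 nt, 14.4% of the class was. After subtraction of a smooth trend in the length and GC content of transcripts and the length of coding sequences, the log2 folds were 1.76 for CA9, 1.63 for NDRG1, 0.93 for EGLN3 and 0.83 for CA12.

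The corrected values of HIF1A and BNIP3L, 0.594 and 0.588, lay just past the log2 value of 0.585 that marks 1.5-fold, whereas those of EGLN1 (0.15), KDM3A (0.05) and BNIP3 (−0.09) were nearer 0. By the corrected values 6 of the 10 genes were higher and 0 lower. Of all 12670 genes so corrected, 7.6% were higher and 6.14% lower. The median of the 10 was then 0.59, against 0.07 for all corrected genes. This correction was planned with the length trend already known from earlier results of these data.

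**Figure D3:**
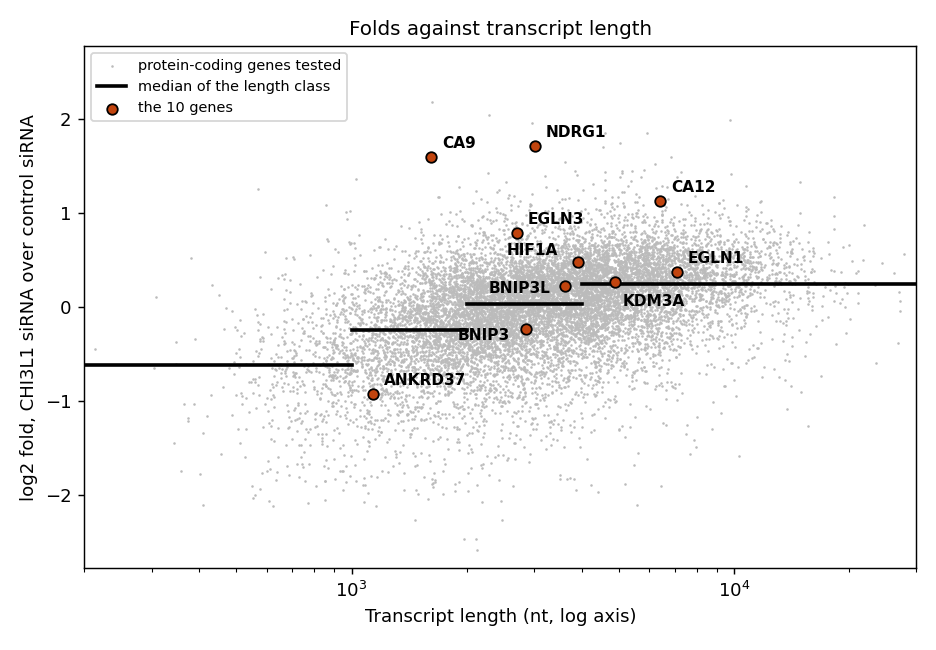
Log2 fold (CPM + 1), CHI3L1 siRNA over control siRNA, against transcript length in nt on a log axis for the tested protein-coding genes (grey) and the 10 genes (red). Black bars are medians of 4 length classes, which run from −0.62 to 0.25. CA9 and NDRG1 lie far above the bar of their class and ANKRD37 below it.

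Beyond the 10 genes, 55 other HIF targets outside glycolysis were listed, of which 52 were tested. Of these, 22 were at least 1.5-fold higher (42.3%, beside 7.73% of all tested genes) and 1 was lower (1.92%, beside 13.4%). The median log2 fold was 0.50, and 45 of the 52 folds were above 0. This list too was chosen with earlier results of these data known, so its share is a description. KDM4B and KDM6B are among these 22 and also among the higher JmjC genes above. The highest were the collagen cross-linking enzyme LOX (log2 fold 1.45), the secreted glycoprotein STC1 (1.41), the collagen prolyl hydroxylase subunit P4HA2 (1.16) and the transcription factor ZNF395 (1.07). ZNF395 shares 34.9% of its exonic bases with FBXO16 on its own strand, a gene at 0.975 CPM in the CHI3L1 siRNA library and 0.443 CPM in the control siRNA library. The lower one was FOS, an immediate early gene with many other inducers, at 263 CPM in the CHI3L1 siRNA library and 468 CPM in the control siRNA library. Targets that are widely used as readouts did not all pass before the length and GC correction. VEGFA, named after its value was seen, stood at 1315 CPM in the CHI3L1 siRNA library and 1102 CPM in the control siRNA library (log2 fold 0.25). After the correction its log2 fold was 0.63, past 1.5-fold. After the correction 25 of the 52 were higher and 1 lower, with a median of 0.52, where 7.6% of all corrected genes were higher and 6.14% lower. Among these genes and the 10 together, NDRG1 and CA9 had the highest uncorrected folds and ANKRD37 the lowest. By corrected values FOS was the lowest (−0.79), and ANKRD37 was at −0.45, within 1.5-fold.

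**Figure D4:**
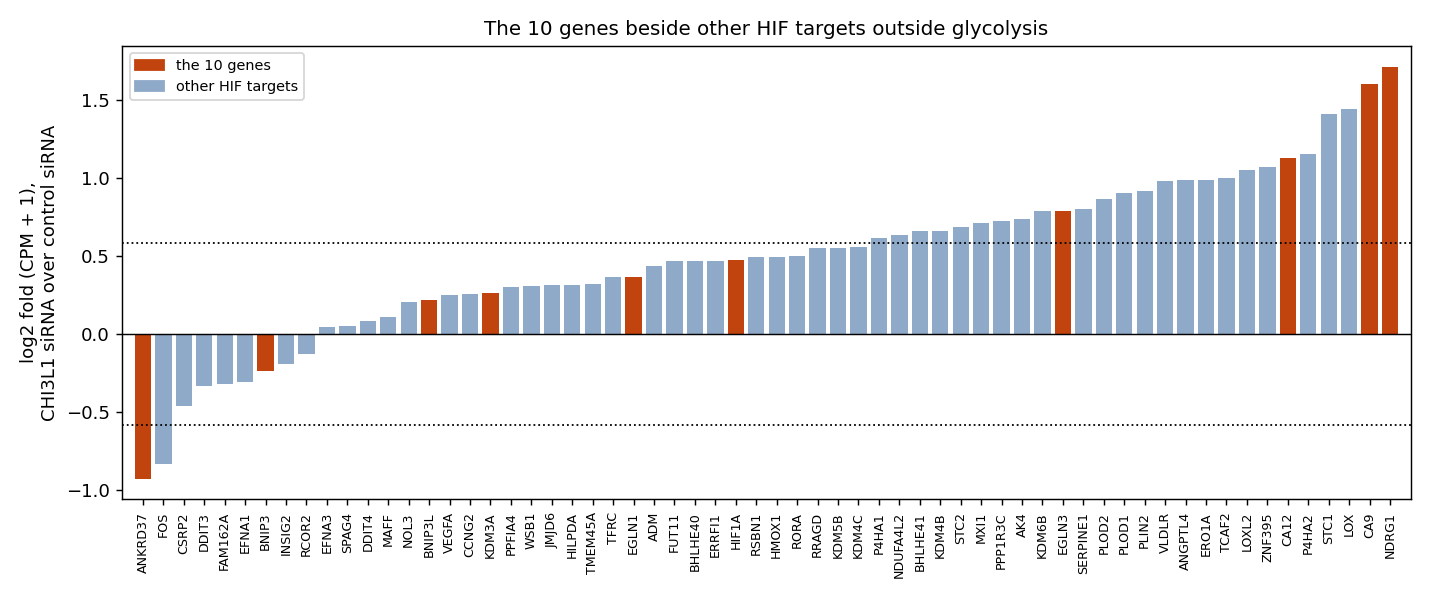
Log2 fold (CPM + 1), CHI3L1 siRNA over control siRNA, of 52 other HIF targets outside glycolysis (blue) and the 10 genes (red), in order of fold. Dotted lines mark 1.5-fold. The red bars are at both ends of the order, from −0.93 for ANKRD37 to 1.72 for NDRG1.

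Because CA9 and CA12 act on bicarbonate and protons outside the cell, 20 genes for bicarbonate transporters and proton exchangers were also listed, and 16 were tested. Of these 4 were higher (25%) and 2 lower (12.5%), with a median of 0.24, where 7.73% of all tested genes were higher and 13.4% lower. The bicarbonate transporter genes SLC4A10 and SLC4A4 had log2 folds of 1.12 and 0.72. SLC4A11 had −0.69, from 14 reads in the CHI3L1 siRNA library and 28 in the control siRNA library. After the correction 1 of the 16 was higher, SLC4A10 (1.15), and 2 were lower, SLC4A11 (−0.84) and SLC9A5 (−0.81). Of all corrected genes, 7.6% were higher and 6.14% lower.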

How the data were processed

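Trizol-extracted total RNA (1 ug) went into Illumina TruSeq libraries, per the labels' protocols. Per the submitters' processing notes, HISAT2, featureCounts, Trimmomatic, FastQC and MultiQC were used with GRCh38; no versions are named. The deposited values are in CPM, as judged from the values: each equals an integer read number, with 0.001 added, multiplied by one constant (0.0513 CPM per read in the CHI3L1 siRNA library and 0.0632 in the control siRNA library), and 100% of values gave whole reads within 0.01 read. The sources used here do not name the normalisation tool, strand setting or annotation release. The table holds no gene with under 6 reads in both libraries. Where no read was found, up to 3 reads are possible, which is 0.154 and 0.190 CPM in the same order.

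Folds used a pseudocount of 1 CPM, and genes averaging 1 CPM or more over both libraries were tested. No count model was run. GENCODE release 29 gave coordinates, exon overlaps and 1 transcript per gene (principal, then best supported, then longest). The correction subtracted a spline (5 degrees of freedom per term, patsy 1.0.2) fitted to coding genes outside the lists. It took up 36.3% of the variance of their folds. Calculations used Python 3.11.15, numpy 2.4.6, pandas 2.3.3 and scipy 1.17.1, and were tested on simulated reads. Named genes are the 10, CHI3L1, their family relatives and up to 4 genes with the largest absolute fold per list. Others, such as overlap partners and VEGFA, were chosen for context or after values were seen. The 10 genes and the lists were chosen with earlier results of these data known.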

Additional observations from a re-analysis of the deposited data

How the results depend on the processing

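NDRG1, CA9 and CA12 were past 1.5-fold under each of the 9 alternatives that alter folds or the genes tested, with log2 folds of 1.62 to 1.72, 1.41 to 1.76 and 0.83 to 1.14. EGLN3 fell short at a pseudocount of 10 CPM (0.47), and its counting interval was not wholly beyond 1.5-fold. ANKRD37 fell short after the length and GC correction (−0.45), which left 0 of the 10 lower, as did a fold of 2. HIF1A and BNIP3L passed after that correction only. No fold of the 10 changed sign under these alternatives. The median of the 10 was 0.41 at a pseudocount of 10 CPM, 0.32 when centred on genes averaging 50 CPM or more, 0.59 after the correction and 0.43 with equal totals, the one alternative added after seeing the data. With a fold of 2, 6 other HIF targets were higher and 0 lower. When centred on genes averaging 50 CPM or more, 17 of them were higher and 1 lower. Intervals wholly beyond 1.5-fold also left 17 higher and 1 lower. Over all tested genes, 492 were higher and 1011 lower at a pseudocount of 10 CPM, 153 and 654 with a fold of 2, and 530 and 1244 with intervals wholly beyond 1.5-fold. Centring left 686 higher and 2572 lower. The correction left 963 higher and 778 lower of the 12670 genes so corrected. By construction each of these alternatives shifts folds, the threshold, or which genes enter. No paired analysis was possible because each group has 1 library. Depth limits EGLN3 and ANKRD37 most, with at most 315 and 437 reads.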

Other observations

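Promoter windows were had for 38 of the 52 other HIF targets tested. Of the 17 that were at least 1.5-fold higher in the CHI3L1 siRNA library, 10 held ACGTG within 250 bases before the RefSeq start, as did 12 of the 21 that were not, which is 58.8% and 57.1%. Over all tested genes with a window, 23.5% held it. The median log2 fold was 0.51 for the 22 other HIF targets with the motif and 0.53 for the 16 without it, and 0.03 both for all tested genes with it and for those without it. Sites outside the window were not searched.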
